A study of Mus musculus with 32 samples.

Results

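The 34 genes described here encode the hepatic machinery that builds fatty acids and triglycerides, 5 of them its regulators, and were taken by gene symbol from a table of 54532 genes measured by RNA-seq in mouse liver. All 34 were present in the table, and 33 passed the filter on low counts in each comparison, the exception being Pnpla5, which was at or near 0 throughout. The series held 32 liver libraries in 8 groups of 4, from male and female C57BL/6 mice of 12 weeks that were wild type (WT) or lacked Cyp2c70 (cyp2c70 -/-, here KO) and that were given chow or a diet with 0.006% SC-435, about 11 mg/kg/day. Cyp2c70 is the mouse enzyme that makes muricholic acids, and SC-435 blocks the transporter of the ileum that takes bile acids up from the gut for return to the liver. The KO line was made by genome editing of exon 2 in embryos, so it was not limited to the liver. The labels number the samples of a group from 1 to 4, and these are written here as mouse 1 to mouse 4. The labels do not name litters, cages or animals, so p-values measure only the spread between these samples.

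Hepatic lipogenesis starts from acetyl-CoA in the cytosol, which comes from citrate, acetate or ketone bodies, and uses NADPH as reductant. Acetyl-CoA carboxylases and fatty acid synthase turn it into palmitate, elongases and desaturases modify the chain, and acyltransferases, lipins and diacylglycerol acyltransferases join acyl chains to glycerol. In liver the programme is induced by feeding through the transcription factors SREBP1c, encoded by Srebf1, and ChREBP, encoded by Mlxipl, and the liver X receptors act partly through Srebf1. SREBP processing is held back by the INSIG proteins, which keep the precursor in the endoplasmic reticulum when sterols are plentiful.

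The libraries held 36476021 to 44771350 counts, with a median of 42232543. Cyp2c70 itself was at 592 to 851 CPM (reads of a gene after each library is brought to a total of 1e+06) in WT females on chow and at 149 to 176 CPM in KO females on chow, against 522 to 751 and 152 to 187 CPM in males; the counts cover the whole gene and not only the edited exon. The 8 hepatocyte markers summed to 55465 to 177768 CPM over the 32 libraries. Among the 32 libraries, WT chow male mouse 1 stood furthest from its own group, with a mean correlation of 0.881 with the other mice of its group, where the other 3 mice had means of 0.951 to 0.955, and its scaling factor of 0.639 was the lowest of all. KO chow female mouse 4 stood apart in the lipogenic genes themselves. Every mouse was left out in turn, but this one is described apart because of the levels of these same members. Counts and adjusted p-values without it are therefore no independent test of the members, and show only how far the results rest on it. The 2 adipocyte genes Adipoq and Plin1 summed to at least 1 CPM in 9 libraries, namely WT chow females 1 and 2, KO chow females 2 and 3, WT SC-435 female 2, WT chow males 1 and 4 and KO SC-435 males 1 and 2. Counts of called members are also given without these libraries.

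Promoter sequences from RefSeq (GRCm38.p6) were found for 28 of the 34 members, as windows of 250 bases before to 50 bases after an annotated start. Those of the 3 genes whose rise with SC-435 the text turns on most (Acss2, Aacs and Fasn), of Insig2, the member that fell, and of Mlxipl, the only member with the sterol element searched, are shown 5′ to 3′. Capitals mark the motifs searched on both strands: the sterol element TCACNCCAC, the E-box CACGTG, the CCAAT box and the GC box GGGCGG, where overlapping matches run together.
Acss2: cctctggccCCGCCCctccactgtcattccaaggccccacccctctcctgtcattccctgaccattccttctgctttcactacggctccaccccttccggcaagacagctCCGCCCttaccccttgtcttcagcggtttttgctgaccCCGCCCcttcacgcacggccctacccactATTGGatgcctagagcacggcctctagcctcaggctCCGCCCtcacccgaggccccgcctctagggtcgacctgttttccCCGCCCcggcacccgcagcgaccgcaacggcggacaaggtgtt
Aacs: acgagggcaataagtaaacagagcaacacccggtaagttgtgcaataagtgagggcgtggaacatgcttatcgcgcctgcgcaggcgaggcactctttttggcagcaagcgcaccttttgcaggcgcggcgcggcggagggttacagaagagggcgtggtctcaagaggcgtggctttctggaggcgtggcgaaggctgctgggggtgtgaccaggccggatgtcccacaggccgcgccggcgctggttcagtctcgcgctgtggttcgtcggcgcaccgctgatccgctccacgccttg
Fasn: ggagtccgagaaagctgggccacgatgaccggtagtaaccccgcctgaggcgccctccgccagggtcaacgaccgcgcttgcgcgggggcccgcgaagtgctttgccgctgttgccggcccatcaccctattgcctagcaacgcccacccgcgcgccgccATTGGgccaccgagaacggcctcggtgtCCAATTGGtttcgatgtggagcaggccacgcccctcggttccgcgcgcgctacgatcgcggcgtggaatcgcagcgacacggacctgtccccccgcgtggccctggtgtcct
Insig2: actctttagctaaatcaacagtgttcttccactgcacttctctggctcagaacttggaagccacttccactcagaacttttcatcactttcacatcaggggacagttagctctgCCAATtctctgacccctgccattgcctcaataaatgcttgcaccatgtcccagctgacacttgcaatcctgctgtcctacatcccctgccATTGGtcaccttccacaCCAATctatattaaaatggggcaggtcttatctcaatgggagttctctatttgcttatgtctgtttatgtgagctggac
Mlxipl: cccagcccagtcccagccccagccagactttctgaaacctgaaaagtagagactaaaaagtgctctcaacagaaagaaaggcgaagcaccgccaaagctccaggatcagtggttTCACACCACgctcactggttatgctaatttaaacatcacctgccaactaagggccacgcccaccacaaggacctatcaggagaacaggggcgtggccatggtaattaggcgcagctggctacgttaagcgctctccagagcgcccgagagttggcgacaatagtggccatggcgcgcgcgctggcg
The windows lie at chr2:155517793-155518092, plus strand (Acss2), chr5:125475623-125475922, plus strand (Aacs), chr11:120824498-120824797, minus strand (Fasn), chr1:121332540-121332839, minus strand (Insig2, the first of 3 annotated starts) and chr5:135106641-135106940, plus strand (Mlxipl, the downstream one of its 2 annotated starts). The window of the upstream Mlxipl start held no sterol element, but 1 E-box, 1 CCAAT box and 2 GC boxes. The sterol element was present in 1 of the 28 members, against 1.44% of all 27025 genes in the same table. The E-box was present in 5 members against 8.09% of genes, the CCAAT box in 19 against 41.1%, and the GC box in 19 against 38.2%. A gene counted if any of its windows matched. The 28 members had 41 windows and the 27025 genes 32851, so members had more windows per gene. Per window, the shares over the whole table were 7.15%, 37.4% and 35.7%. The liver X receptor repeat DR4 was in 0 of the 28 and in 0.0148% of genes. The Fasn window held 3 CCAAT boxes, 2 of them overlapping, the Acss2 window 5 GC boxes and 1 CCAAT box, and the Aacs window none of these letters. These are matches of letters in short windows, and the counts are per whole gene, so they say nothing of which start was used.

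Levels per gene length, averaged over the 8 groups, ranged from 1469 CPM per kb for Scd1, the main hepatic stearoyl-CoA desaturase, to 0.0264 CPM per kb for Pnpla5. After Scd1 came the desaturase Fads2 (281 CPM per kb), the triglyceride-forming acyltransferase Dgat2 (199), the desaturase Fads1 (180) and the elongase Elovl5 (155). Fasn stood at 70.1 CPM per kb and Acss2 at 40.8. At the low end were the second desaturase isoform Scd2 (2.35), the first enzyme of the pentose phosphate pathway G6pdx (2.31) and the lipid droplet hydrolase Pnpla3 (0.810). The lowest and highest group means differed most for Pnpla3 (24.9-fold), Acss2 (7.76-fold), the phosphatidate phosphatase Lpin1 (5.80-fold) and Aacs (5.65-fold), and least for the elongase Elovl2 (1.32-fold). The Pnpla3 ratio rests on a mean of 0.111 CPM in WT SC-435 males, where 3 counts would be 0.0670 to 0.0822 CPM over the 32 libraries. Its highest group mean was 2.77 CPM. Lpin1 was also the most variable tested member between mice of a group, with a within-group SD of 1.09 on the log2 scale. Exons of 4 members overlap those of another gene on the opposite strand over at least 10.2% of their length, 25.5% for Mid1ip1, 22% for Pklr, 13.6% for G6pdx and 10.2% for Lpcat3, and whether reads were counted by strand is not given in the sources used here.

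**Figure D1:**
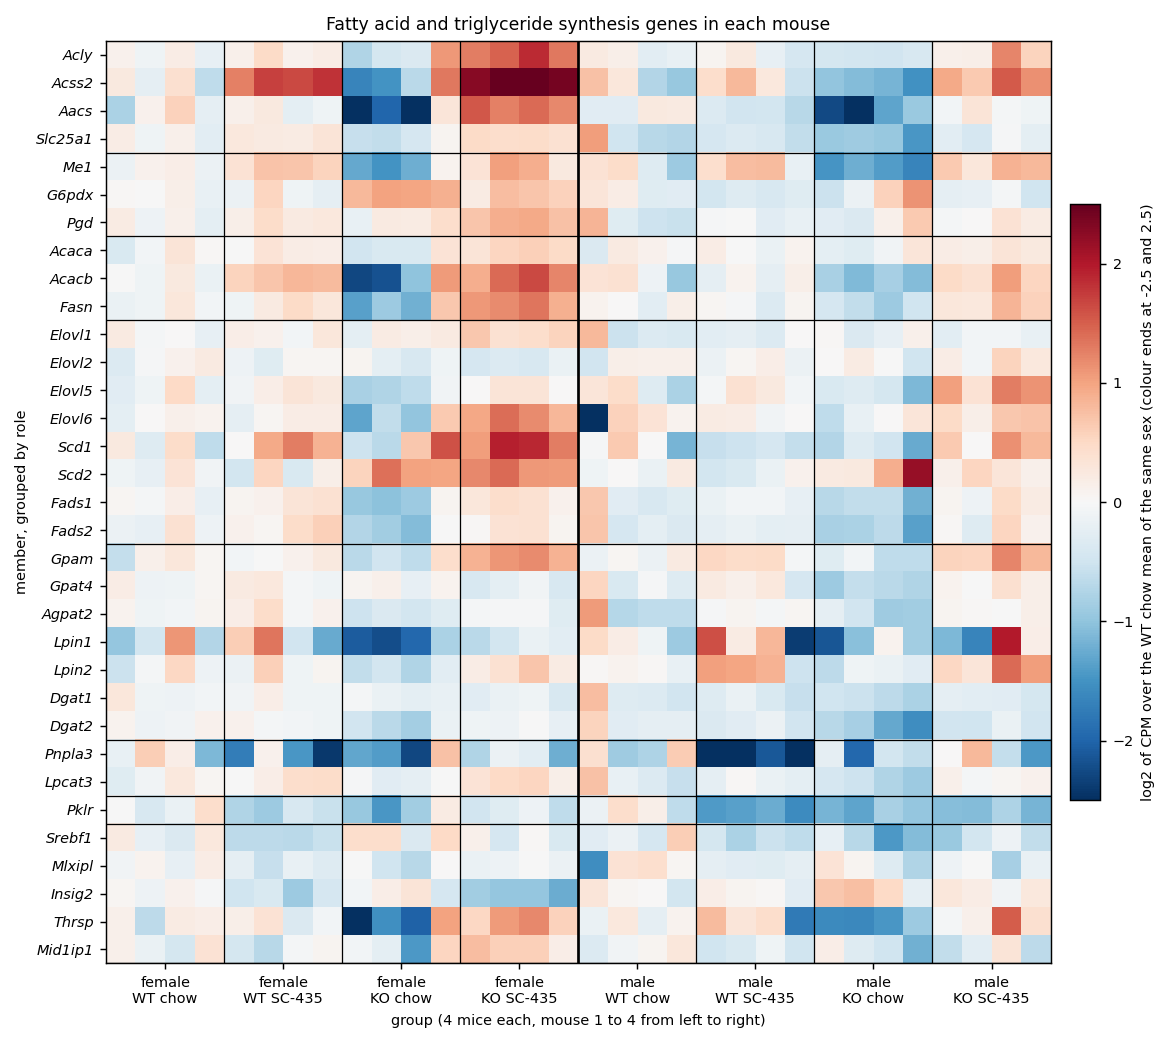
Each cell is the log2 of a mouse's CPM over the mean of the WT chow mice of the same sex, for 33 members (rows, by role) in 32 mice (columns, by group); red is higher and blue lower, and colours end at -2.5 and 2.5. KO chow females 1 to 3 are mostly blue and female 4 mostly red, and the KO SC-435 females are red for the early steps of synthesis.

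SC-435 against chow in KO mice asked what interruption of bile acid return did to these genes in the livers that lacked Cyp2c70. In KO females 18 of 33 members rose and 1 fell (edgeR quasi-likelihood test, adjusted p under 0.05 over all genes tested), against 8.56% of all genes higher and 9.23% lower. The median member log2 fold change was 0.69, beside -0.02 over all genes. In KO males 19 of 33 rose and 0 fell, against 8.8% and 8.36% of all genes, with a median of 0.66 beside -0.03. Of these, 8 members in females and 11 in males also passed a log2 fold change of 1, against 2.11% and 1.88% of all genes. The fall count of 0 in males compares with 5 members of negative log2 fold change, 0 called by DESeq2 and 1 by limma with voom quality weights. The members called higher in both sexes were Fasn, Acly, Elovl5, Me1, Acss2, Aacs, Fads1, Fads2, Gpam, Agpat2, Lpin2, Slc25a1 and Lpcat3. No share of all genes called in both sexes is given here, so their number is not read as a result.

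Those counts depended on single libraries in females. Without KO chow mouse 4, singled out by these same levels, the female count was 25 higher, against 13.4% of all genes in that fit. Without KO chow mouse 2 or mouse 3 it was 9 or 11, against 4.33% or 6.51%, and without KO SC-435 mouse 2 or mouse 3 it was 9 or 7, against 3.91% or 4.45%. Without the libraries that held adipocyte markers, which left KO chow mice 1 and 4 only, it was 1 higher (Lpin2) and 1 lower (Insig2), against 2.07% and 1.8% of all genes, while the median member log2 fold change was 0.53. In males the same exclusion, which left KO SC-435 mice 3 and 4, gave 13 higher and 0 lower, against 1.67% and 0.725%. Markers of other cell types moved with SC-435 in KO mice: 3 of 7 cholangiocyte, 6 of 7 macrophage and 2 of 6 stellate and fibroblast markers fell in females, and 5 of 7, 2 of 7 and 4 of 6 in males. Over all genes 9.23% fell in females and 8.36% in males. The cholangiocyte markers summed to 137 to 300.5 CPM on chow and 99.3 to 144 CPM on SC-435 in females, and to 147 to 1160 and 50.7 to 61.7 CPM in males. The stellate and fibroblast markers summed to 204 to 565 CPM on chow and 156 to 204 CPM on SC-435 in females, and to 140.4 to 750.2 and 60.9 to 109 CPM in males. In each sex 7 of 8 hepatocyte markers had log2 fold changes above 0 without passing the test, and the 8 summed to 57901 to 81649 and 86510 to 100348 CPM in females and to 55679 to 84899 and 68645 to 93020 CPM in males. Their part in the members' changes was not tested, and in bulk liver fewer cells of a type and less RNA per cell cannot be told apart.

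Every enzyme that supplies cytosolic acetyl-CoA and citrate rose with SC-435 in KO mice of both sexes, 4 of 4 members. Acss2, which makes acetyl-CoA from acetate, was at 56.3, 62.8, 112 and 442 CPM in KO females on chow and at 859, 1105, 1132 and 932 CPM on SC-435. The groups did not overlap, although chow mouse 4 was far above the other 3. The log2 fold change was 2.58 ± 0.60 (SE here and below), a 5.96-fold rise (edgeR adjusted p = 0.0174). In KO males Acss2 was at 147, 138, 131 and 103 CPM on chow and 565, 462, 847 and 642 CPM on SC-435. That is a 4.74-fold rise with no overlap (log2 fold change 2.25 ± 0.19, edgeR adjusted p = 0.000277).

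Aacs, which activates the ketone body acetoacetate for lipid synthesis, was at 13.1, 18.8, 13.0 and 91.6 CPM in KO females on chow and 220.2, 179, 201 and 172 CPM on SC-435. Each SC-435 mouse exceeded each chow mouse (log2 fold change 2.49 ± 0.59, edgeR adjusted p = 0.0187), and without KO chow mouse 2 the adjusted p was 0.0568. In males Aacs was at 31.3, 22.9, 59.8 and 78.9 CPM on chow and 143, 186, 145 and 139 CPM on SC-435 (log2 fold change 1.63 ± 0.35, edgeR adjusted p = 0.0173). Acly, the citrate lyase, rose by 1.41 ± 0.36 in females and 1.01 ± 0.22 in males on the log2 scale (edgeR adjusted p = 0.0257 and 0.0190). Slc25a1, the mitochondrial citrate carrier, rose by 0.78 ± 0.14 and 0.78 ± 0.14 (edgeR adjusted p = 0.00697 and 0.00794).

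Of the 3 NADPH-supplying members, malic enzyme moved most. Me1 was at 72.0, 62.7, 75.7 and 186 CPM in KO females on chow and 222, 356, 332 and 209 CPM on SC-435. It was at 88.8, 106, 94.6 and 79.1 CPM in KO males on chow and 388, 303, 453 and 435 CPM on SC-435. The rise was 2.80-fold in females (log2 fold change 1.48 ± 0.34, edgeR adjusted p = 0.0166) and 4.20-fold in males (2.07 ± 0.14, edgeR adjusted p = 0.000128), without overlap in either sex. The female call was lost without KO SC-435 mouse 2 or 3 (adjusted p of at most 0.0554). Pgd, of the pentose phosphate pathway, was at 38.9, 51.8, 50.9 and 59.6 CPM on chow and 71.6, 83.2, 84.7 and 73.5 CPM on SC-435 in KO females, and rose (log2 fold change 0.62 ± 0.12, edgeR adjusted p = 0.00894), beside 0.01 ± 0.22 (0.980) in males, and the difference between the sexes had an adjusted p of 0.371. G6pdx had log2 fold changes of -0.36 ± 0.13 and -0.67 ± 0.33 (edgeR adjusted p = 0.0831 and 0.171).

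Fasn, which carries out all steps of palmitate synthesis, was at 281, 382, 311 and 1144 CPM in KO females on chow and at 1532, 1632, 1821 and 1330 CPM on SC-435. Chow mouse 4 was far above the other 3 chow mice but under every SC-435 mouse. The log2 fold change was 1.57 ± 0.40 (edgeR adjusted p = 0.0255), and leaving out any of KO chow mice 1 to 3 or KO SC-435 mice 1 to 3 raised the adjusted p to 0.0555 to 0.0756. In KO males Fasn was at 453, 397, 326 and 429.5 CPM on chow and 738, 732, 1096 and 910.4 CPM on SC-435, a 2.12-fold rise (1.08 ± 0.16, edgeR adjusted p = 0.00393).

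The 2 acetyl-CoA carboxylases make malonyl-CoA, Acaca in the cytosol for synthesis and Acacb at the mitochondrial surface, where it restrains fatty acid oxidation. Acacb was at 23.9, 25.8, 57.3 and 241 CPM in KO females on chow and 217, 307, 362 and 270.3 CPM on SC-435, and the groups overlapped through chow mouse 4 (log2 fold change 1.73 ± 0.65, edgeR adjusted p = 0.0934). Without that mouse, singled out by these same levels, the change was 3.01 ± 0.32 (edgeR adjusted p = 0.000151), which is no independent test. In KO males it was at 73.7, 60.4, 72.9 and 61.2 CPM on chow and 180.1, 169.6, 268 and 188 CPM on SC-435, a 2.93-fold rise (1.55 ± 0.15, edgeR adjusted p = 0.000569). Acaca moved less, at 85.4, 91.7, 91.7 and 150.2 CPM on chow and 149, 172, 179.5 and 167 CPM on SC-435 in KO females (0.66 ± 0.17, edgeR adjusted p = 0.0235), a call lost without any of 5 libraries (KO chow mice 1 to 3 and KO SC-435 mice 2 and 3). In males its change was 0.25 ± 0.14 (edgeR adjusted p = 0.209).

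Of the 8 elongases and desaturases, 5 rose in KO females and 4 in KO males. Elovl6, which extends palmitate to stearate, was at 42.8, 69.8, 54.4 and 168 CPM in KO females on chow and 208, 283, 244 and 191 CPM on SC-435 (1.46 ± 0.37, edgeR adjusted p = 0.0238), a call lost without KO chow mouse 2 or 3 or KO SC-435 mouse 1, 2 or 3. In KO males it was at 54.8, 75.2, 85.4 and 106 CPM on chow and 119, 93.9, 137 and 140.3 CPM on SC-435 (0.57 ± 0.20, edgeR adjusted p = 0.0750).

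Elovl5, an elongase of polyunsaturated chains, was at 306, 318, 295 and 183 CPM in KO males on chow and 816, 516, 966 and 867 CPM on SC-435, a 2.81-fold rise (1.49 ± 0.22, edgeR adjusted p = 0.00431). In KO females it was at 355, 369.5, 399.9 and 591 CPM on chow and 628, 781, 776 and 629 CPM on SC-435 (0.70 ± 0.16, edgeR adjusted p = 0.0188), and that call was lost without KO chow mouse 2 or KO SC-435 mouse 2 or 3. Both sexes had no overlap between the diets.

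Scd1, which introduces the double bond of oleate and palmitoleate, was at 5143, 6877, 6152 and 3577 CPM in KO males on chow and 13479, 8553, 18985 and 14964 CPM on SC-435 (1.33 ± 0.28, edgeR adjusted p = 0.0163, and 0.0528 without KO SC-435 mouse 4). In KO females it was at 2194, 1981, 5029 and 9456 CPM on chow and 6493, 12142, 11599 and 7604 CPM on SC-435, and the groups overlapped (1.01 ± 0.46, edgeR adjusted p = 0.154). Fads1, a desaturase of polyunsaturated chains, was at 351, 331, 361 and 711 CPM on chow and 819, 912, 881 and 730.0 CPM on SC-435 in KO females. In KO males it was at 381, 402, 399 and 267 CPM on chow and 644, 565, 856 and 705 CPM on SC-435. Its changes were 0.92 ± 0.23 and 0.90 ± 0.16 (edgeR adjusted p = 0.0221 and 0.00931), and the female call was lost without any of KO chow mice 1 to 3 or KO SC-435 mice 1 to 3. Fads2 rose by 0.82 ± 0.21 in females and 0.97 ± 0.19 in males (edgeR adjusted p = 0.0253 and 0.0129). Elovl1 rose in females (0.41 ± 0.11, edgeR adjusted p = 0.0268), while Elovl2 and Scd2 passed in neither sex.

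Among the 7 members that assemble glycerolipids, 4 rose in KO females and 6 in KO males. Gpam, the mitochondrial glycerol-3-phosphate acyltransferase, was at 100.3, 115, 103 and 217 CPM in KO females on chow and 295, 344, 367 and 293 CPM on SC-435. It was at 139.8, 166, 112 and 112 CPM in KO males on chow and 256, 251, 403 and 306 CPM on SC-435. The rise was 2.40-fold in females (1.26 ± 0.23, edgeR adjusted p = 0.00734) and 2.25-fold in males (1.17 ± 0.18, edgeR adjusted p = 0.00467), with no overlap. Lpin1, which also acts as a coregulator in the nucleus, was at 46.7, 42.0, 50.6 and 114 CPM on chow and 123, 143, 174 and 163 CPM on SC-435 in KO females (1.24 ± 0.29, edgeR adjusted p = 0.0175, and 0.0532 without KO SC-435 mouse 3). In KO males it ran from 53.7 to 253 CPM on chow and from 75.7 to 937 CPM on SC-435, with KO SC-435 mouse 3 the highest of all mice (1.29 ± 0.76, edgeR adjusted p = 0.255).

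Lpin2 was at 197, 219.9, 180.1 and 251 CPM on chow and 342, 391, 488 and 349 CPM on SC-435 in KO females, and at 177, 261, 251 and 231 CPM on chow and 404, 344, 749.6 and 578 CPM on SC-435 in KO males. It rose in both (0.87 ± 0.14 and 1.14 ± 0.24, edgeR adjusted p = 0.00469 and 0.0156), the male call being lost without KO SC-435 mouse 4 (adjusted p = 0.0516). Gpat4, the acyltransferase of the endoplasmic reticulum, was at 142, 178, 169 and 159 CPM in KO males on chow and 283, 265, 353 and 296 CPM on SC-435, a rise without overlap (0.85 ± 0.11, edgeR adjusted p = 0.00229). In KO females it was at 167, 175, 138 and 169 CPM on chow and 121, 134, 149 and 121 CPM on SC-435 (-0.32 ± 0.10, edgeR adjusted p = 0.0571). Agpat2 rose in both sexes by less than 1 on the log2 scale (0.29 ± 0.09 and 0.61 ± 0.14), and Dgat1 and Dgat2 rose in males (0.29 ± 0.08 and 0.62 ± 0.18, edgeR adjusted p = 0.0438 and 0.0434).

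Lpcat3, which remodels phospholipids with polyunsaturated chains, was at 97.2, 80.9, 84.9 and 98.5 CPM on chow and 125, 139, 144 and 109 CPM on SC-435 in KO females and at 96.2, 89.9, 76.5 and 68.4 CPM on chow and 139, 124, 133 and 138 CPM on SC-435 in KO males. It rose by 0.50 ± 0.11 and 0.66 ± 0.11 on the log2 scale (edgeR adjusted p = 0.0136 and 0.00568). Pnpla3 and Pklr, the liver pyruvate kinase, passed in neither sex (Pklr 0.25 ± 0.29 and 0.00 ± 0.13). Pnpla5 had at most 0.365 CPM in any mouse and 0 counts in all 4 WT SC-435 males, where 3 counts would be 0.0670 to 0.0822 CPM over the 32 libraries, and was not tested.

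Of the 5 regulators, Insig2 fell in KO females and Thrsp rose in KO males. Srebf1 was at 461, 462, 266 and 483 CPM in KO females on chow and 372, 255, 348 and 261 CPM on SC-435, and at 317, 227, 135 and 172 CPM on chow and 192, 265, 334 and 238 CPM on SC-435 in KO males. The diets overlapped in both sexes (log2 fold change -0.45 ± 0.19 and 0.24 ± 0.25, edgeR adjusted p = 0.135 and 0.525). Mlxipl was at 446, 317, 277 and 456 CPM on chow and 402, 412, 446 and 405 CPM on SC-435 in KO females and at 465, 389, 295 and 218 CPM on chow and 337, 368, 206 and 322 CPM on SC-435 in KO males (0.14 ± 0.15 and -0.17 ± 0.24, edgeR adjusted p = 0.575 and 0.641). Insig2, the 1 member that fell, was at 246, 289, 325 and 194 CPM in KO females on chow and 142, 133, 133 and 109.9 CPM on SC-435 (-1.05 ± 0.16, edgeR adjusted p = 0.00365), with no overlap. In KO males it was at 286, 303, 253 and 154 CPM on chow and 217, 204, 169.8 and 216 CPM on SC-435, and the diets overlapped (-0.33 ± 0.19, edgeR adjusted p = 0.240). The test of the difference between the sexes gave -0.73 ± 0.27 (edgeR adjusted p = 0.262).

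Thrsp, the feeding-induced lipogenic protein also called Spot 14, was at 79.6, 77.9, 87.8 and 128 CPM in KO males on chow and 230.3, 259.9, 684 and 315 CPM on SC-435, a 3.89-fold rise (1.96 ± 0.35, edgeR adjusted p = 0.00838). In KO females it was at 24.9, 51.8, 36.5 and 298 CPM on chow and 213, 312, 345 and 222 CPM on SC-435. Chow mouse 4 lay within the SC-435 range, and the test did not pass (1.40 ± 0.67, edgeR adjusted p = 0.175). Without that mouse, singled out by these same levels, the change was 2.84 ± 0.26 (edgeR adjusted p = 6.53e-05), which is no independent test. Its paralog Mid1ip1, which promotes acetyl-CoA carboxylase assembly, was at 38.6, 34.1, 15.0 and 58.7 CPM on chow and 69.5, 61.5, 61.5 and 45.7 CPM on SC-435 in females and at 53.5, 38.2, 33.5 and 20.7 CPM on chow and 31.1, 39.5, 59.3 and 30.4 CPM on SC-435 in males, with changes of 0.69 ± 0.31 and 0.11 ± 0.29 that did not pass (edgeR adjusted p = 0.156 and 0.819).

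**Figure D2:**
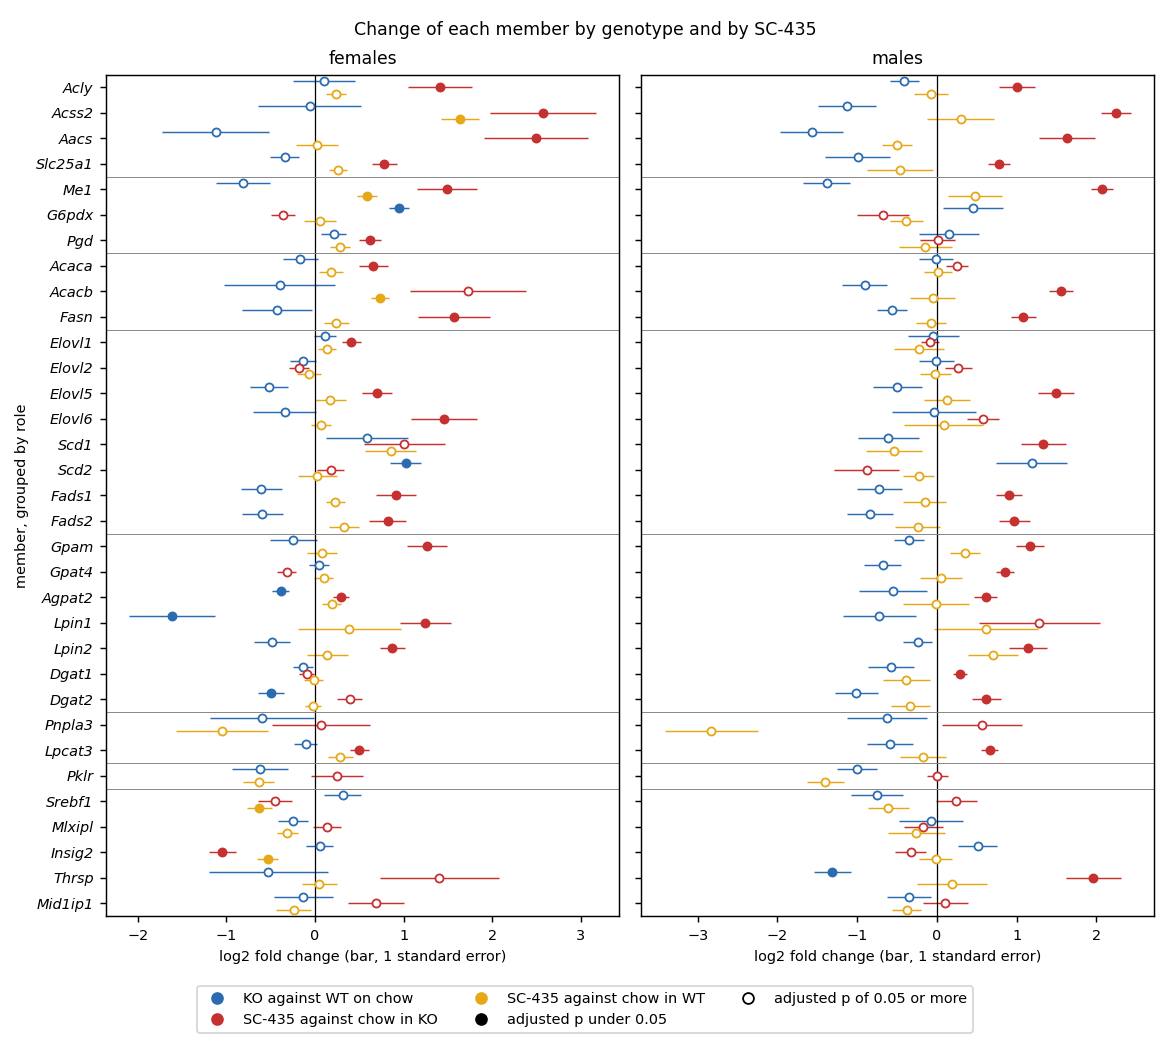
Log2 fold change (x axis) of 33 members (y axis, by role) for KO against WT on chow in blue, SC-435 against chow in KO in red and SC-435 against chow in WT in yellow, in females (left) and males (right); bars are 1 standard error and filled points passed an adjusted p of 0.05. Filled red points lie right of 0 except Insig2 in females, and few blue or yellow points are filled.

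KO against WT on chow asked what loss of Cyp2c70 alone did to the genes, and its KO chow mice are those of the comparison above. In females 3 of 33 members were lower in KO (Lpin1, Dgat2 and Agpat2) and 2 were higher (Scd2 and G6pdx), against 5.05% of all genes lower and 9.83% higher; Dgat2 and Agpat2 were named after their values were seen. The median member log2 fold change was -0.25 beside -0.02 over all genes, and 9 of 33 were above 0, against 47.5% of all genes. The female lower count was 6 with DESeq2 and 13 with limma and voom quality weights, against 7.8% and 11.6% of all genes, and 0 with 1 fit of all 32 libraries or with library size alone as the scaling. Without the libraries with adipocyte markers, which left WT mice 3 and 4 and KO mice 1 and 4, 0 female members were higher and 0 lower, against 0% and 0.0123% of all genes. In males 1 of 33 was lower (Thrsp) and 0 were higher, against 0.151% and 0.933% of all genes, with a median of -0.58 beside 0.04 and 4 of 33 above 0, against 53.2% of all genes. At an unadjusted p under 0.05 there were 15 male members, against 15.4% of all genes, and DESeq2 called 8 lower and 0 higher, against 1.96% and 4.87%, and limma with voom quality weights 9 lower and 1 higher, against 6.49% and 8.85%. The male groups did not overlap, with KO lower, for 13 of 33 members, against 7% of all genes. With the replicate number as a block, which the samples of this comparison shared, 0 male members were lower.

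Lpin1 was at 101, 143, 422 and 119 CPM in WT females and 46.7, 42.0, 50.6 and 114 CPM in KO females (-1.61 ± 0.48, edgeR adjusted p = 0.0480). The groups overlapped, WT mouse 3 was well above the rest, and without it the change was -0.92 (adjusted p = 0.104); the call was also lost without WT mouse 2 or KO mouse 1, 2 or 3. Dgat2, the main hepatic triglyceride-forming enzyme, was at 728, 631, 645 and 734 CPM in WT and 494, 432, 379 and 614 CPM in KO females (-0.49 ± 0.15, edgeR adjusted p = 0.0478). In males it was at 1172, 655, 684 and 685 CPM in WT and 496, 448, 331 and 273 CPM in KO, again without overlap (-1.01 ± 0.27, edgeR adjusted p = 0.124). Agpat2 in females was at 224, 196, 203 and 223 CPM in WT and 148, 164, 154 and 170.4 CPM in KO (-0.39 ± 0.09, edgeR adjusted p = 0.0212).

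Scd2 and G6pdx went the other way. Scd2 was at 8.66, 8.15, 11.8 and 8.86 CPM in WT females and 13.7, 24.2, 18.7 and 18.5 CPM in KO females, a 2.03-fold rise (1.02 ± 0.18, edgeR adjusted p = 0.00560). G6pdx was at 5.51, 5.32, 5.99 and 4.73 CPM in WT and 9.46, 10.9, 10.7 and 9.94 CPM in KO (0.95 ± 0.12, edgeR adjusted p = 0.00178), and neither gene overlapped. Without the libraries with adipocyte markers the differences were 0.66 ± 0.22 for Scd2 and 0.88 ± 0.20 for G6pdx (edgeR adjusted p = 0.322 and 0.212). In males Scd2 was at 7.59, 8.25, 7.36 and 9.66 CPM in WT and 9.56, 9.68, 15.4 and 37.2 CPM in KO, and G6pdx at 8.69, 7.98, 5.71 and 5.77 CPM in WT and 4.83, 6.35, 10.4 and 15.3 CPM in KO, with KO mouse 4 the highest for both. Neither passed in males (1.19 ± 0.44 and 0.45 ± 0.37, edgeR adjusted p = 0.241 and 0.589). Markers of other cell types moved with genotype: 5 of 7 cholangiocyte, 5 of 7 macrophage and 3 of 6 stellate and fibroblast markers were higher in KO females, and 5 of 7 cholangiocyte and 1 of 7 macrophage markers in KO males, where 6 of 6 stellate and fibroblast markers had log2 fold changes above 0 without passing the test. Over all genes 9.83% were higher in KO females and 0.933% in KO males. The cholangiocyte markers summed to 37.7 to 71.4 CPM in WT and 137 to 300.5 CPM in KO females, and to 23.6 to 35.9 and 147 to 1160 CPM in males, KO male mouse 4 being the highest. The macrophage markers summed to 254 to 304 and 346 to 502 CPM in females and 190.4 to 335 and 199 to 647 CPM in males. The stellate and fibroblast markers summed to 90.1 to 130.4 and 204 to 565 CPM in females and 67.0 to 95.3 and 140.4 to 750.2 CPM in males. Of 8 hepatocyte markers, 5 were lower in KO females, against 5.05% of all genes. The part of these cell types in the levels of Scd2, G6pdx or any other member was not tested.

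Thrsp in males was at 212, 287, 205 and 254 CPM in WT and 79.6, 77.9, 87.8 and 128 CPM in KO (-1.31 ± 0.23, edgeR adjusted p = 0.0403), with no overlap. The call was lost without any of WT mice 2 to 4 or KO mice 1 to 3, with adjusted p up to 0.140. Other large male differences that did not pass were Aacs (-1.57 ± 0.39, edgeR adjusted p = 0.101), Me1 (-1.39 ± 0.30, 0.0687) and Acss2 (-1.13 ± 0.36, 0.181), none of which overlapped. Aacs was at 122, 123, 177 and 175 CPM in WT males and Me1 at 318, 342, 199 and 132 CPM. Without WT male mouse 1, 5 members were lower in KO, against 2.92% of all genes in that fit: Me1 (-1.25 ± 0.28, edgeR adjusted p = 0.0367), Thrsp (-1.37 ± 0.20, 0.0143), Aacs (-1.67 ± 0.40, 0.0457), Dgat2 (-0.77 ± 0.19, 0.0486) and Pklr (-1.05 ± 0.23, 0.0369). Without the 2 WT males that held adipocyte markers, 4 were lower (Acacb, Me1, Thrsp and Pklr), against 0.616% of all genes.

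In females the genotype comparison depended most on 1 mouse. KO chow mouse 4 exceeded the WT chow mean for 25 of 33 members, while KO mice 1, 2 and 3 did so for 5, 7 and 6. Over the members, the median log2 level against the WT mean was -0.56, -0.50, -0.60 and 0.23 in the 4 KO mice, in order. Without mouse 4, 17 members were lower and 2 higher, where 3 and 2 were with it, and the median was -0.48. In that fit 6.74% of all genes were lower and 12.6% higher. The 17 were Fasn, Acacb, Acly, Elovl5, Elovl6, Me1, Pnpla3, Thrsp, Acss2, Aacs, Fads1, Fads2, Agpat2, Lpin1, Dgat2, Pklr and Slc25a1. Among them Aacs fell most (-2.27 ± 0.29, edgeR adjusted p = 0.000726), then Lpin1 (-2.02 ± 0.46, 0.0131) and Thrsp (-1.93 ± 0.27, 0.00117). Without KO mouse 1, 2 or 3 in turn, 0 members were lower, and without WT mouse 2, 3 or 4 there was 1. No label sets mouse 4 apart, and it was singled out by the levels of these same members, so the fit without it is no independent test of them. Outside the members, its cholangiocyte sum of 137 CPM was the lowest and its hepatocyte sum of 81649 CPM the highest of the 4 KO chow females. Its adipocyte genes Adipoq and Plin1 were at 0, and its Cyp2c70 level of 176 CPM was the highest of the 4 KO females and below every WT mouse.

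**Figure D3:**
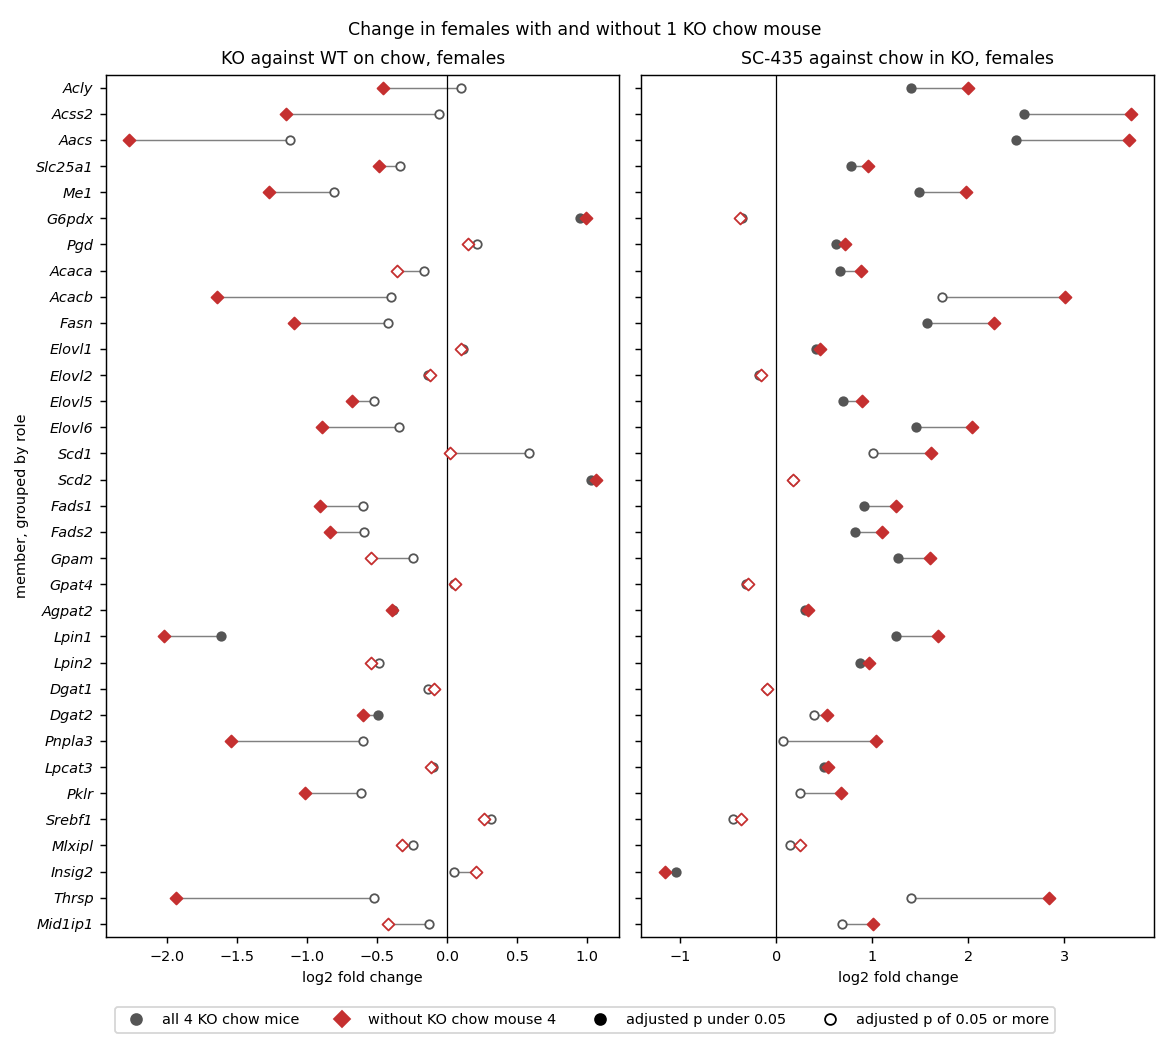
Log2 fold change (x axis) of 33 members (y axis, by role) in females for KO against WT on chow (left) and SC-435 against chow in KO (right), with all 4 KO chow mice (grey circles) and without KO chow mouse 4 (red diamonds); filled symbols passed an adjusted p of 0.05. Without the mouse, lower calls went from 3 to 17 on the left and higher calls from 18 to 25 on the right. The mouse was singled out by the levels of these same members.

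The mice were fed freely and not fasted, and a gene of the circadian clock varied with the groups. Dbp, a clock output whose mRNA swings widely over the day, was at 9.45, 14.0, 4.46 and 43.8 CPM in KO females on chow and 49.7, 84.4, 80.3 and 71.4 CPM on SC-435. In KO males Dbp was at 2.90, 6.94, 15.5 and 26.2 CPM on chow and 35.5, 23.8, 76.4 and 20.1 CPM on SC-435. In WT chow mice it was at 4.04, 1.46, 7.15 and 57.8 CPM in females and 16.3, 138, 129 and 134 CPM in males. Dbp and the median member level of a mouse lay at the same end of their group in some cases and at opposite ends in others. The mice named next are examples. KO chow female mouse 4 had the highest Dbp and the highest median member log2 level (0.23) of its group. KO chow male mouse 4 had the highest Dbp and the lowest median (-0.70) of its group. WT chow male mouse 1 had the lowest Dbp and the highest median (0.31). KO SC-435 male mouse 3 had the highest Dbp and the highest median (0.45) of its group. WT SC-435 male mouse 4 had the lowest Dbp (19.5 CPM) and the lowest median (-0.25) of its group. Of 12 clock genes, 3 rose and 3 fell with SC-435 in KO females, and 2 rose in KO males. Over all genes 8.56% rose and 9.23% fell in KO females, and 8.8% rose in KO males. For KO against WT on chow the median clock gene log2 fold change was -0.08 in females and -0.65 in males. Times of death are not given in the sources used here, and the part of time of day or feeding in the levels of the members was not tested.

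**Figure D4:**
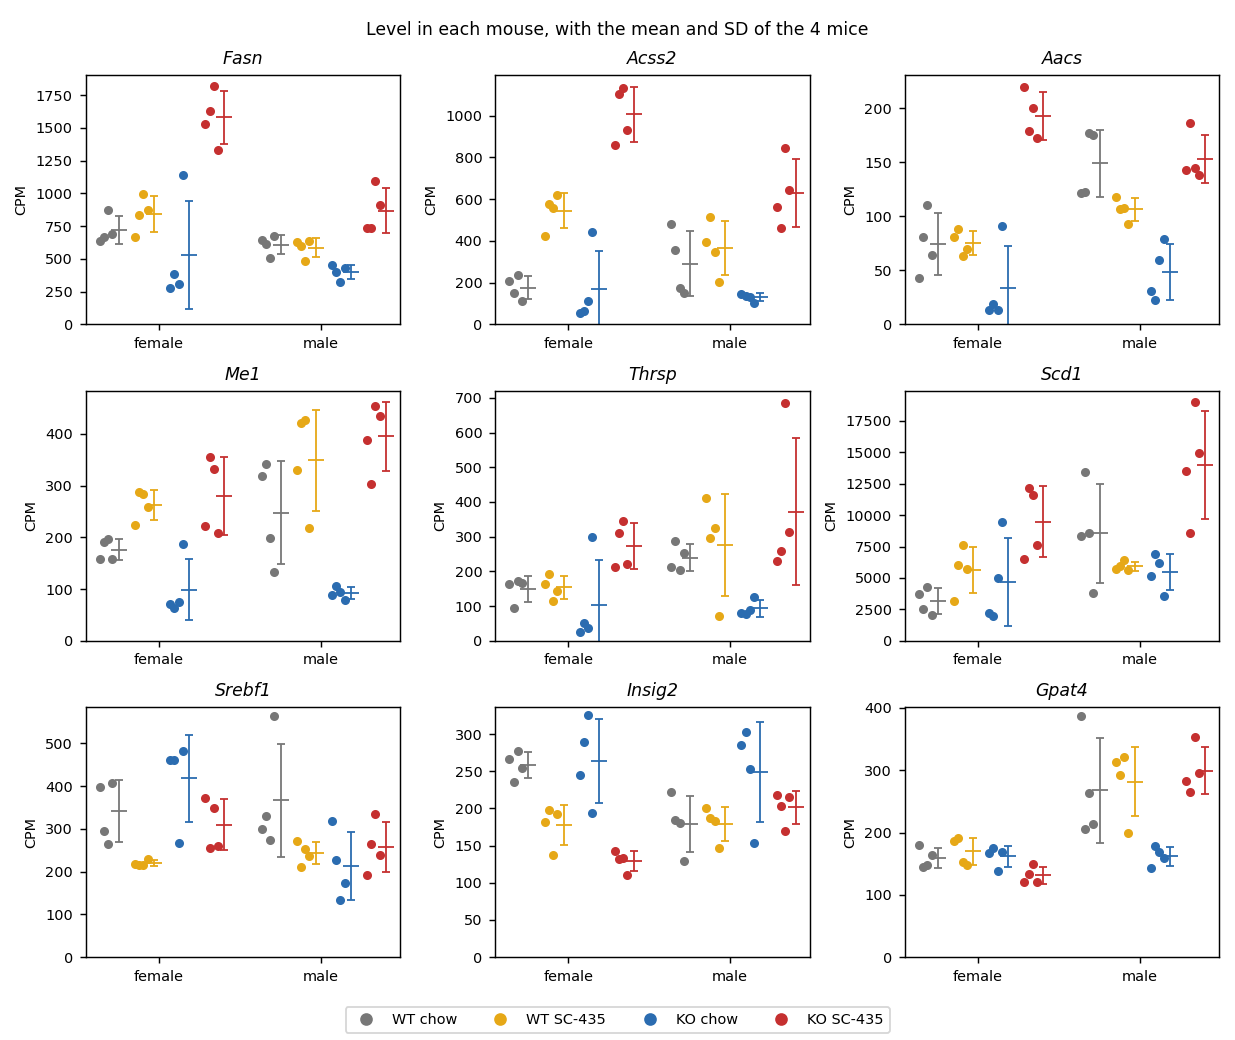
CPM (y axis, from 0) of 9 members in each of 4 mice per group, with the mean and SD beside the points, for WT chow (grey), WT SC-435 (yellow), KO chow (blue) and KO SC-435 (red) mice; SD bars are cut at 0. Fasn, Acss2 and Aacs are highest in KO SC-435 females, 1 KO chow female stands above its group in the top row, and Insig2 is lowest in KO SC-435 females.

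SC-435 in WT mice changed few members. In WT females 3 of 33 rose (Acss2, Acacb and Me1) and 2 fell (Srebf1 and Insig2), against 2.4% of all genes higher and 1.88% lower. The median member log2 fold change was 0.14 beside -0.00 over all genes. In WT males 0 of 33 were called in either direction by edgeR, against 0.0394% of all genes, with 4 members at an unadjusted p under 0.05 against 6.12% of genes; DESeq2 called 0 higher and 2 lower, and voom called 3 higher and 5 lower, against 5.21% and 5.27% of genes. The male median was -0.15 beside -0.03. Without WT chow male mouse 1, edgeR called 1 higher (Agpat2, 0.67 ± 0.08, adjusted p = 0.00769) and 3 lower (Pklr, -1.44 ± 0.21, 0.0136; Mlxipl, -0.55 ± 0.11, 0.0365; Pnpla3, -2.67 ± 0.57, 0.0486), these 4 being named after their values were seen. Pnpla3 averaged only 0.111 CPM in WT SC-435 males, close to the level of 3 counts. In that fit 1.41% of all genes were higher and 1.12% lower. Without the libraries with adipocyte markers the counts were 0 and 0 in WT females, against 0.544% and 0.266% of all genes, and 1 (Agpat2) and 2 (Mlxipl and Pklr) in WT males, against 0.441% and 0.403%.

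Acss2 was at 208, 151, 235 and 113 CPM in WT females on chow and 425, 576, 558 and 621 CPM on SC-435, a 3.10-fold rise without overlap (1.63 ± 0.21, edgeR adjusted p = 0.00599). Acacb was at 115, 108, 137 and 104 CPM on chow and 171, 188, 205 and 200.1 CPM on SC-435 (0.73 ± 0.10, edgeR adjusted p = 0.00736). Me1 was at 158, 190.1, 197 and 158 CPM on chow and 224, 287, 283 and 258 CPM on SC-435 (0.59 ± 0.11, edgeR adjusted p = 0.0206), a call lost without WT SC-435 mouse 2, 3 or 4. All 3 were separate between the diets. Srebf1 was at 398, 294, 264 and 407 CPM on chow and 218, 216, 215 and 231 CPM on SC-435, where the 4 mice lay close together (-0.63 ± 0.14, edgeR adjusted p = 0.0353). Insig2 was at 267, 235, 277 and 255 CPM on chow and 182, 198, 138 and 193 CPM on SC-435 (-0.53 ± 0.11, edgeR adjusted p = 0.0317). The Srebf1 call was lost without any 1 of 7 of the 8 mice, WT chow mouse 3 being the exception, and the Insig2 call without any 1 of the 8. In WT males Srebf1 was at 299.9, 329, 274 and 563 CPM on chow and 272, 211, 252 and 237 CPM on SC-435, Acss2 at 482, 358, 177 and 152 CPM on chow and 397, 515, 349.6 and 203 CPM on SC-435, and Insig2 at 222, 185, 181 and 129.7 CPM on chow and 200.3, 187, 184 and 146 CPM on SC-435. Of these, only Srebf1 was separate between the diets (-0.61 ± 0.25, edgeR adjusted p = 0.787).

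The difference of the SC-435 change between KO and WT was tested directly. In females the test passed for 1 of 33 members, Gpam, whose SC-435 change was larger in KO by 1.18 ± 0.30 on the log2 scale (edgeR adjusted p = 0.0484), against 0.859% of all genes higher and 1.78% lower. Gpam was at 106, 175, 195 and 166 CPM in WT females on chow and 152, 159, 173 and 191 CPM on SC-435. That call was lost without any 1 of 13 of the 16 libraries, with adjusted p up to 0.115, the exceptions being WT chow mouse 1, KO chow mouse 4 and KO SC-435 mouse 4. The median difference over the members was 0.52 beside -0.01 over all genes. Over 9 settings of the processing, with all 16 libraries, the higher count ran from 0 to 16. The 16 came with voom quality weights, and its share of all genes is not given here. Without KO chow mouse 4, 16 members had a larger SC-435 change in KO, led by Aacs (3.63 ± 0.33, edgeR adjusted p = 1.04e-05), Thrsp (2.78 ± 0.36, 0.000297) and Acacb (2.26 ± 0.34, 0.000802), and 1, Insig2, a lower one (-0.64 ± 0.17, 0.0280). In that fit 4.6% of all genes had a larger change in KO and 4.97% a lower one. The mouse left out was singled out by the levels of these same members, so these calls are no independent test.

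In males 0 of 33 members passed this test with edgeR, against 0.0906% of all genes, although 19 were at an unadjusted p under 0.05, against 13.3% of genes, and the median difference was 0.81 beside -0.04. DESeq2 called 10 higher and voom 9, against 0.866% and 1.59% of genes. Among the members that rose with SC-435 in KO males, the differences were Aacs (2.11 ± 0.42, edgeR adjusted p = 0.0712), Acss2 (1.92 ± 0.48, 0.124), Scd1 (1.86 ± 0.46, 0.122) and Thrsp (1.75 ± 0.59, 0.241). Without WT chow male mouse 1, 3 passed: Fasn (1.09 ± 0.22, edgeR adjusted p = 0.0453), Aacs (2.17 ± 0.43, 0.0453) and Pklr (1.41 ± 0.26, 0.0366), against 0.301% of all genes. Without WT chow male mouse 4 or KO chow male mouse 4, 2 (Acacb among them) and 1 (Aacs) passed, against 0.0237% and 0.00599%.

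KO mice on SC-435 were also set against WT mice on chow, which share their WT chow mice with the comparisons above. In females 17 of 33 members were higher and 1, Insig2, was lower, against 8.73% and 7.3% of all genes, with a median of 0.45 beside -0.00. By role, the higher members were 4 of 4 for acetyl-CoA and citrate, 3 of 3 for NADPH, 3 of 3 for carboxylation and chain synthesis and 4 of 8 for elongation and desaturation, but 1 of 7 for glycerolipid assembly. The Acaca call was lost in 4 of the 8 fits that left out 1 mouse (edgeR adjusted p up to 0.0772). The Me1 call was lost in 2 of the 8 (edgeR adjusted p up to 0.0702). Acss2 was 5.73-fold higher (2.52 ± 0.21, edgeR adjusted p = 9.98e-05), beside -0.06 ± 0.58 for KO against WT on chow and 1.63 ± 0.21 for SC-435 in WT. Fasn averaged 718 ± 107 CPM (SD, n = 4) in WT on chow and 1579 ± 204 CPM in KO on SC-435 (1.15 ± 0.13, edgeR adjusted p = 0.000399), with -0.42 ± 0.40 for KO on chow and 0.24 ± 0.14 for SC-435 in WT. Scd1 averaged 3147 ± 1053 and 9460 ± 2830 CPM, a 3.03-fold difference (1.60 ± 0.26, edgeR adjusted p = 0.00290). Scd2 was higher than in WT chow females (1.21 ± 0.13, edgeR adjusted p = 0.000326), as was G6pdx (0.59 ± 0.14, 0.0165, a call lost without KO SC-435 mouse 2 or 3), and Insig2 was lower (-0.99 ± 0.10, 0.000199). Without the libraries with adipocyte markers 13 members were higher and 2, Elovl2 and Insig2, lower, against 7.36% and 6.45% of all genes.

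In males 0 of 33 members differed between KO on SC-435 and WT on chow with edgeR, against 0.208% of all genes, with 6 at an unadjusted p under 0.05 against 8.24% of genes, and a median of 0.16 beside -0.03. DESeq2 called 1 higher and 1 lower, and voom 12 higher and 3 lower, against 9.17% and 9.39% of genes for voom. Without WT chow male mouse 1, 10 were higher and 1, Pklr, lower (-1.07 ± 0.21, edgeR adjusted p = 0.0127), against 6.47% of all genes higher and 5.7% lower. Acss2 was then 1.45 ± 0.30 higher (edgeR adjusted p = 0.0173), Elovl5 1.10 ± 0.29 (0.0409) and Gpam 0.75 ± 0.16 (0.0196). Without the libraries with adipocyte markers 6 were higher and 1 lower, against 2.5% and 2.17%. In WT chow male mouse 1 several members stood far from the other 3 mice, such as Agpat2 at 538, 155, 166 and 164 CPM and Elovl6 at 14.8, 126, 109 and 90.9 CPM, in mouse order.

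The sexes were compared by tests of the difference. For the KO change on chow, 0 of 33 members differed between females and males with edgeR, against 0.0235% of all genes, with 2 at an unadjusted p under 0.05 against 6.26% of genes, 0 called by DESeq2 and 1 by voom. For the SC-435 change in KO, 1 of 33 differed, Gpat4, with a female minus male difference of -1.20 ± 0.15 on the log2 scale (edgeR adjusted p = 0.00466), against 0.211% of all genes. Without KO chow female mouse 4, the SC-435 change was larger in females for 4 members, Aacs (2.03 ± 0.43, edgeR adjusted p = 0.0345), Elovl6 (1.45 ± 0.29, 0.0272), Acss2 (1.44 ± 0.32, 0.0425) and Fasn (1.17 ± 0.22, 0.0220), and Gpat4 kept its lower value (-1.16 ± 0.16, 0.00366). In that fit 0.707% of all genes had a larger change in females and 0.356% a lower one, and the mouse left out was singled out by the levels of these same members. Between WT chow females and males 0 members differed with edgeR, against 1.49% of all genes, with 8 at an unadjusted p under 0.05 against 10.6% of genes; DESeq2 called 1 higher and 2 lower in females and voom 4 and 5, against 8.19% and 8.95% of genes for voom. Scd1 averaged 3147 ± 1053 CPM in WT females and 8549 ± 3933 CPM in WT males (-1.47 ± 0.40, edgeR adjusted p = 0.158), and -1.47 ± 0.38 without male mouse 1 (0.0421). Without that mouse 4 members were higher in females (Pnpla3, Fads1, Agpat2 and Insig2) and 4 lower (Scd1, Thrsp, Aacs and Gpat4), against 4.78% and 4.75% of all genes.

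A further 51 genes of the same pathway (other elongases, acyl-CoA synthetases, acyltransferases, cofactor enzymes and regulators) were described by counts alone. With SC-435, 15 of 49 tested rose and 1 fell in KO females, and 15 of 50 rose and 2 fell in KO males, with medians of 0.17 and 0.26. Over all genes in that comparison, 8.56% rose and 9.23% fell in females, and 8.8% and 8.36% in males. These shares also stand beside the SC-435 counts in KO mice below. For KO against WT on chow, 2 rose and 8 fell of 49 in females, against 9.83% of all genes higher and 5.05% lower. The medians over the tested genes were -0.17 in females and -0.26 in males, and the counts in males are not given here. The 23 cholesterol synthesis genes, which SREBP2 drives, rose with SC-435 in 23 of 23 cases in KO mice of either sex, with medians of 2.40 in females and 1.74 in males, against 0.69 and 0.66 for the members. In WT females 10 of 23 rose (median 0.91), against 2.4% of all genes, and the count in WT males is not given here. For KO against WT on chow their medians were -0.85 in females and -0.77 in males. Of 10 liver X receptor targets outside the members, 2 rose and 3 fell in KO females on SC-435, and 2 rose in KO males. Of 10 fasting and feeding genes, 1 rose and 1 fell in KO females on SC-435 and 1 rose in KO males. Of 15 fatty acid oxidation genes, 3 rose in KO females and 11 in KO males with SC-435. On chow 10 of 15 were lower in KO than WT females, against 5.05% of all genes, and the count in males is not given here.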

How the data were processed

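Liver RNA-seq counts were analysed for 32 mice in 8 groups of 4. The deposited counts are raw read counts per gene. The submitters' processing notes name HISAT2 2.0.5, featureCounts 1.5.0-p3, DESeq2 1.20.0, GATK 4.1.1.0 and the mm10 build. The deposited table also held gene lengths, used for CPM per kb, and the authors' fold changes and p-values, which were not used. Total counts were 36476021 to 44771350 per library, so for most members the number of mice limits the precision.

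Counts were filtered with filterByExpr, scaled by TMM and tested with edgeR 4.0.16 (quasi-likelihood, R 4.3.3) on the groups compared, with Benjamini-Hochberg adjustment over all genes tested. A call is an adjusted p under 0.05, and ± after a log2 fold change is its standard error. Levels are CPM with TMM factors over all 32 libraries. DESeq2 1.42.0, limma 3.58.1 with voom quality weights, other scalings and filters, a replicate block, 1 fit of all libraries and leaving out each mouse were alternatives. The scripts were tested on simulated data. The members and lists were chosen with earlier results of these data known.

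Values by mouse are given for the regulators, for the 2 members of each role with the largest called SC-435 change in KO mice of each sex, for members called against the main direction and for those called in a test of a difference. Other members given by mouse were chosen after their values were seen. Same-numbered mice were taken as paired where every correlation of their deviations from the group means was over 0.1, which held only for KO against WT on chow in males (0.101 to 0.194, 4 of 4 highest with their own number); for females against males in WT on chow it was 0.0830 to 0.459, with 3 of 4 over 0.1. This pairing comes from the data, since the labels state none.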

Additional observations from a re-analysis of the deposited data

Results flagged for a closer look

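In groups of 4 mice, the mouse furthest from the others was tested against Dixon's 95% critical value, for the 23 members given by mouse in 8 groups. Chance exceeds it in about 1 in 20 independent groups. The groups here are not independent, since the same mice recur over the members, and the members were chosen partly by their calls. Their number is therefore not compared with chance. The critical value was exceeded in 21 of 184 groups. KO chow female mouse 4 was set apart upwards in 10 of these: Fasn at 1143.55 CPM, Acss2 at 441.629 CPM, Aacs at 91.6181 CPM, Me1 at 186.227 CPM, Thrsp at 298.391 CPM, Acaca at 150.192 CPM, Acacb at 241.13 CPM, Gpam at 217.253 CPM, Lpin1 at 113.817 CPM and Fads1 at 710.502 CPM. In the same group Srebf1 was set apart in mouse 3, at 265.888 CPM. In WT chow females Thrsp stood apart in mouse 2 at 94.164 CPM and Lpin1 in mouse 3 at 422.494 CPM, and in WT SC-435 females G6pdx stood apart in mouse 2 at 7.85613 CPM.

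Among males, WT chow mouse 1 stood apart for Pgd at 105.389 CPM and Fads1 at 984.501 CPM. KO chow mouse 4 stood apart for Fads1 at 267.217 CPM and Elovl5 at 183.207 CPM, WT SC-435 mouse 4 for Gpam at 168.449 CPM and Lpin2 at 196.851 CPM, and KO SC-435 mouse 2 for Aacs at 186.07 CPM.

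The SC-435 change of Gpam differed between KO and WT females by 1.18364 on the log2 scale, and that of Gpat4 differed between KO females and KO males by -1.19626, each by an edgeR test of the difference.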

How the results depend on the processing

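Counts of called members are given as higher or lower, and beyond the leave-out cases in the report the cause of each move was not tested. Shares of all genes are not given in this section. A count that moved does not by itself say that the members moved more than all genes. Median-of-ratios scaling moved no count past 1.5 times. DESeq2 gave 6 lower for KO against WT on chow in females and 8 lower in males, 2 lower for SC-435 in KO females, 2 lower for SC-435 in WT males, 1 higher and 1 lower for KO on SC-435 against WT on chow in males, 2 higher and 10 higher for the difference between KO and WT in females and males, and 1 higher and 2 lower for females against males. Voom quality weights gave, in that order, 13 lower, then 1 higher and 9 lower, 3 lower, 3 higher and 5 lower, 12 higher and 3 lower, 16 higher with 1 lower and 9 higher, and 4 higher and 5 lower. They also gave 1 lower for SC-435 in KO males, 2 lower for KO on SC-435 against WT on chow in females and 1 higher for the difference of the KO change between the sexes, where Acss2 reversed to -0.20.

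One fit of all 32 libraries gave 0 lower in females and 1 higher and 11 lower in males for KO against WT on chow, 1 lower for SC-435 in KO males, 0 higher and 0 lower in WT females, 2 lower in WT males, 7 higher for KO on SC-435 against WT on chow in females and 2 higher and 1 lower in males, 0 and 5 higher for the difference between KO and WT in females and males, and 3 lower for females against males. Library size alone gave 0 lower in both sexes for KO against WT on chow, 4 lower for SC-435 in KO females, and 2 higher and 1 lower for the difference in females. A mean of at least 50 counts gave 1 lower for KO against WT on chow and 2 lower for SC-435 in KO, both in females. No filter gave 2 lower for KO against WT on chow in males, and 2 and 3 higher for the difference in females and males.

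The replicate block gave 0 lower for KO against WT on chow in males, where same-numbered mice were taken as paired from the data and not from the labels. It gave 0 lower for SC-435 in WT females, where samples shared only a number. No other count moved past 1.5 times. Leaving out the libraries with adipocyte markers, chosen after seeing the data, gave 0 higher and 0 lower for KO against WT on chow in females and 4 lower in males, 1 higher for SC-435 in KO females, 0 higher and 0 lower in WT females, 1 higher and 2 lower in WT males, 2 lower for KO on SC-435 against WT on chow in females and 6 higher and 1 lower in males, 0 and 2 higher for the difference in females and males, and 1 higher for females against males.

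Leaving out 1 mouse at a time gave higher counts of 7 to 25 for SC-435 in KO females, 0 to 1 in WT males, 0 to 10 for KO on SC-435 against WT on chow in males, 0 to 16 and 0 to 3 for the difference between KO and WT in females and males, 0 to 4 for the difference of the SC-435 change between the sexes and 0 to 4 for females against males. Lower counts were 0 to 17 and 0 to 5 for KO against WT on chow in females and males, 1 to 3 and 0 to 1 for SC-435 in KO females and males, 0 to 1 and 0 to 3 in WT females and males, 1 to 2 and 0 to 1 for KO on SC-435 against WT on chow, 0 to 1 for the difference in females and 0 to 4 for females against males.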
